A study of Homo sapiens with 4 samples.

Results

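Molecular chaperones of the cytosol and mitochondria were followed in K562 cells, a human chronic myelogenous leukaemia line, after depletion of PHF8, a demethylase of methylated histone lysines. The genes were taken from the deposited TPM table by name: the DNAJ, HSPA, numbered HSPB, HSP90A, HSPH, HSPD, HSPE and numbered BAG genes, and the CCT chaperonin subunits CCT2 to CCT8 with CCT6A and TCP1. HSPA5, DNAJB9, DNAJB11 and DNAJC3, which belong to the endoplasmic reticulum, were left out. This gave 68 of the 11213 genes in the table, with 208 of its 32551 transcripts. Of the 68, 67 averaged 1 TPM or more and were tested. DNAJB2 was not tested, with 0.902 and 0 TPM in shPHF8 libraries, against 0.00414 and 2.01 TPM in shControl libraries.

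The series asks how PHF8 bears on transcription of the BCR-ABL1 fusion. The 2 shPHF8 libraries came from K562 cells transduced with lentivirus carrying a hairpin against PHF8, with the genotype given as PHF8 knockdown. The 2 shControl libraries came from K562 cells transduced with a control hairpin, with the genotype given as WT. All the cells were treated with polybrene and selected with puromycin. The labels leave unsaid whether shPHF8 1 and 2 are replicates or carry different hairpins, and whether any library had its own culture. The p-values therefore measure only the spread between these samples, which may be technical.

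PHF8 was at 6.06 and 6.42 TPM in shPHF8 libraries, against 25.9 and 22.5 TPM in shControl libraries. All log2 fold changes are differences of log2(TPM + 1) means, shPHF8 minus shControl, and that of PHF8 was -1.80 ± 0.16 (SE, n = 2 each; limma with Benjamini-Hochberg adjusted p = 0.0643). Of the 9 erythroid genes fixed as K562 markers, all were listed, and their TPM summed to 13604 and 12957 in shPHF8 libraries, against 8573 and 9101 in shControl libraries. The 4 globins HBG1, HBG2, HBE1 and HBZ and the transferrin receptor TFRC were higher at an unadjusted limma p under 0.05, whereas GATA1 was at 311 and 307 TPM in shPHF8 libraries, against 339 and 343 TPM in shControl libraries, and EPOR overlapped between groups. Of the markers fixed for other cell types, 1 of 4 for T cells, 1 of 4 for stroma and endothelium, 1 of 3 for epithelium and 0 of 6 for monocytes and granulocytes were among the genes analysed here. The T cell marker CD3D was at 14.9 and 11.0 TPM in shPHF8 libraries, against 29.6 and 31.5 TPM in shControl libraries. The epithelial marker EPCAM was at 148 and 146 TPM in shPHF8 libraries, against 169 and 167 TPM in shControl libraries. COL1A1, of stroma, was at 1.63 and 0.866 TPM in shPHF8 libraries, against 0.505 and 1.42 TPM in shControl libraries, with overlap. The globins, TFRC, CD3D and EPCAM thus differed between groups at an unadjusted limma p under 0.05, as did 22.0% of all genes. None of them passed limma with Benjamini-Hochberg adjustment at 0.05, and their part in the results was not tested. All libraries are labelled as K562 cells, so these markers are not read as numbers of other cell types. In such bulk RNA, fewer cells with a transcript and less of it per cell cannot be told apart.

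Chaperones bind unfolded or partly folded proteins and let them fold, assemble or be handed to degradation. HSP70 proteins do this in cycles of ATP binding and hydrolysis, which J-proteins (DNAJ) start and nucleotide exchange factors (HSP110 and BAG proteins) reset. HSP90 takes over later clients such as kinases, among them the BCR-ABL1 kinase, the CCT ring encloses actin, tubulin and other proteins, and HSPD1 with HSPE1 forms the chaperonin of mitochondria. In developing red cells, inducible HSP70 is known for protecting the transcription factor GATA1 from cleavage by caspase. Many of these genes respond to heat shock factor 1 (HSF1), which binds repeats of the heat shock element in their promoters.

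The total of these transcripts differed by less than the spread between libraries. The 68 genes together held 1.72% and 1.70% of all TPM in shPHF8 libraries, against 1.68% and 1.72% in shControl libraries. Their summed TPM were 17155 and 16991 in shPHF8 libraries, against 16815 and 17196 in shControl libraries. The 4 most abundant genes, the cytosolic HSP90AB1, HSPA8 and HSP90AA1 and the mitochondrial HSPD1, had log2 fold changes from -0.07 to 0.08.

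No chaperone gene passed the test over all genes. By limma with Benjamini-Hochberg adjustment at 0.05, 0 of 67 were called higher and 0 lower, as were 0.0% of the 10972 genes tested in either direction. The smallest adjusted p among the chaperones was 0.0703. An unadjusted limma p below 0.05 was found for 12 chaperones, or 17.9%, against 22.0% of all genes. Of the 12, 7 were higher and 5 lower, or 10.4% and 7.46% of the 67, where the shares of all genes were 9.9% higher and 12.1% lower. Both shPHF8 libraries lay above both shControl libraries in 14 chaperone genes, or 20.9%, and below both in 16, or 23.9%, where the shares of all genes were 26.0% and 29.3%. In all, 44.8% of chaperones and 55.3% of all genes had groups that did not overlap. The chaperones' counts were thus near or below the background. The median log2 fold change was -0.03 over the 67 chaperones and -0.02 over all genes. Its median size, taken without sign, was 0.15 for chaperones and 0.25 for all genes, and 58.2% of chaperones and 42.9% of all genes were within 0.2 of 0. The chaperones are also more abundant, with a median level of 72.2 TPM against 29.5 TPM for all genes, and the bearing of level on these sizes was not tested. Without shPHF8 replicate 1 there were 3 higher genes, and 2 of the 7 were among them, CCT6A and HSPB11. Without shPHF8 replicate 2 there were 4 higher genes, which held CCT6A, HSPB1 and HSPB11 of the 7, and 2 of the 5 lower genes, DNAJC16 and HSPA6, stayed under 0.05.

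**Figure D1:**
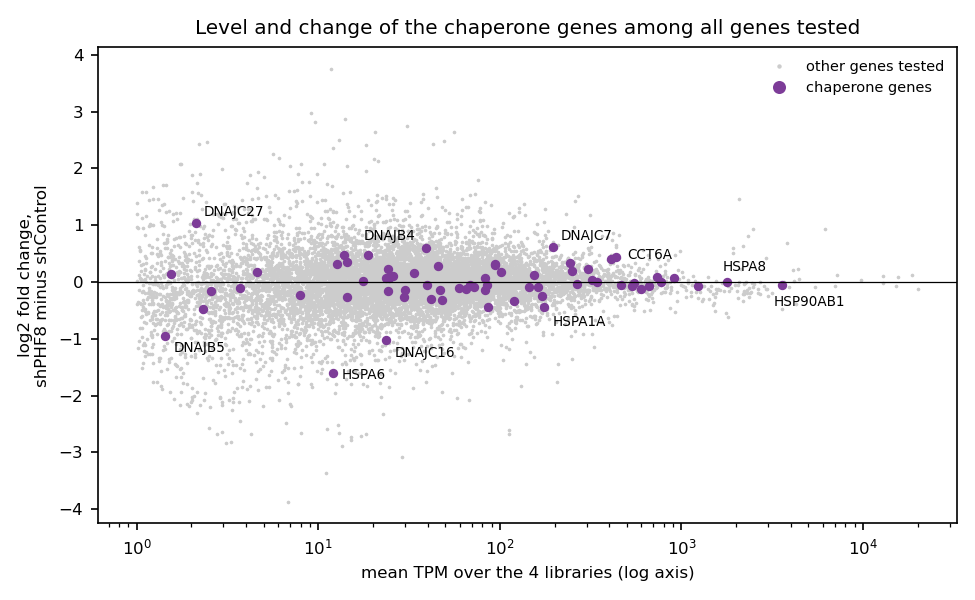
Each point is a gene, with its mean TPM over the 4 libraries on a log axis and its log2 fold change (shPHF8 minus shControl) on the vertical axis; the 67 chaperones are purple and the other genes tested grey. HSP90AB1 and HSPA8, the most abundant chaperones, sit near 0, while HSPA6 at -1.60 and DNAJC16 at -1.03 lie lowest and DNAJC27 at 1.04 highest.

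**Figure D2:**
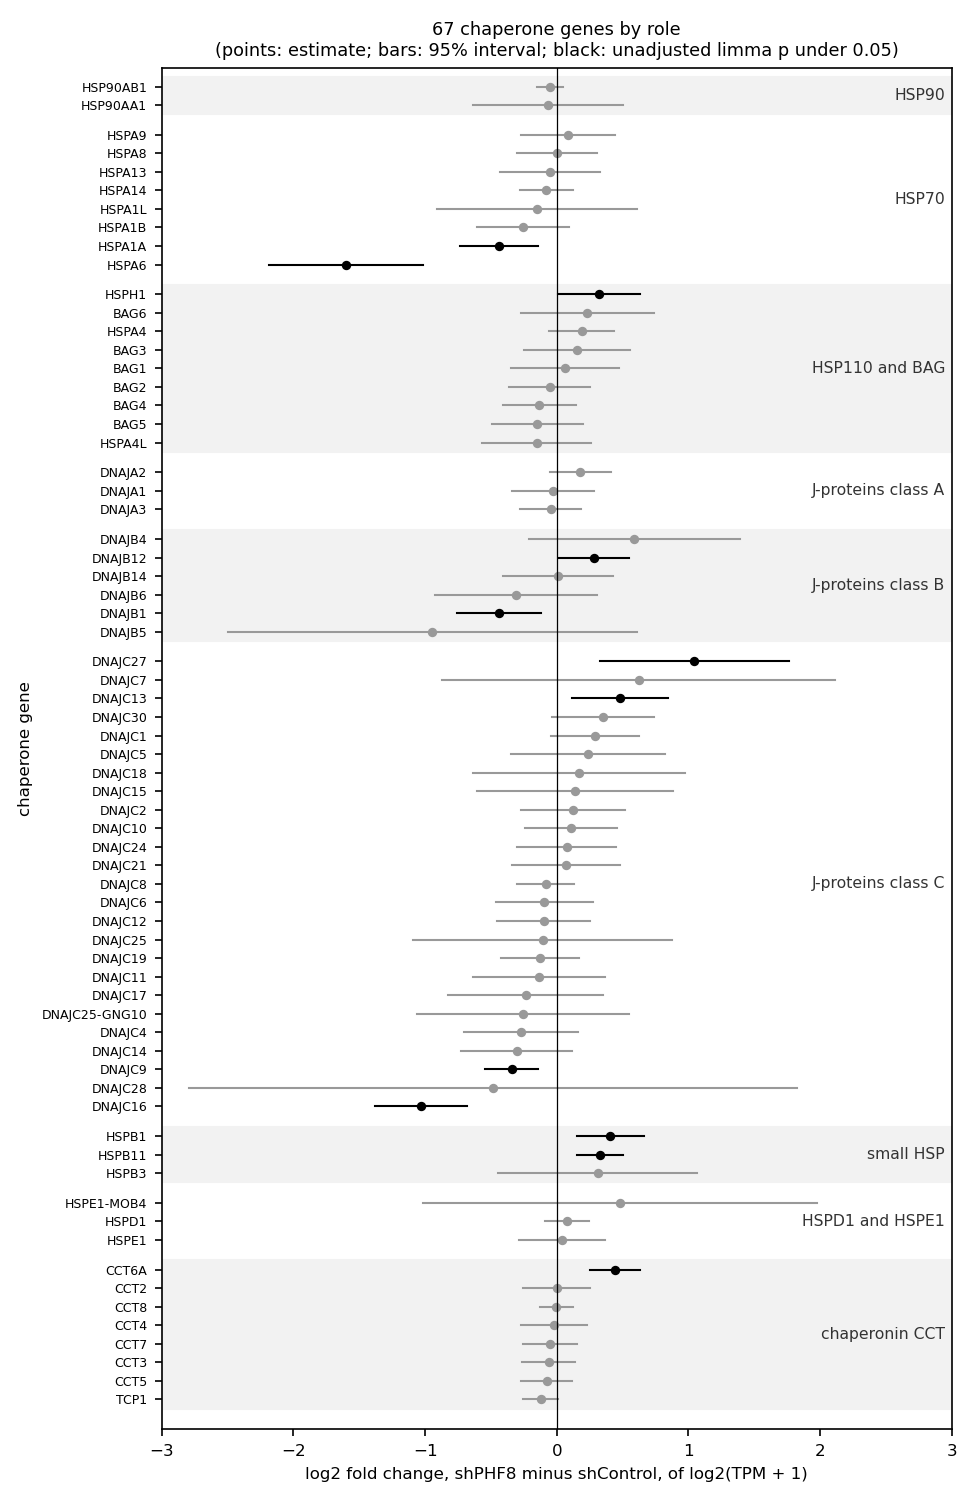
Log2 fold change of the 67 chaperone genes tested, in 9 role groups, with 95% confidence intervals from limma; black marks an unadjusted limma p under 0.05 and grey the rest. The 12 black genes are spread over 6 of the 9 groups and lie on both sides of 0.

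Of the 8 HSP70 genes, the stress-inducible HSPA6 and HSPA1A were lower in shPHF8 libraries at an unadjusted limma p under 0.05. At that threshold 12.1% of all genes were lower. HSPA6 (ENSG00000173110), an HSP70 that is nearly silent in unstressed cells, was at 4.85 and 6.16 TPM in shPHF8 libraries, against 16.5 and 20.9 TPM in shControl libraries. The groups were far apart: the mean was 0.294 times that of shControl, with a log2 fold change of -1.60 ± 0.21 (SE; limma with Benjamini-Hochberg adjusted p = 0.0756). HSPA1A, one of the paired inducible HSP70 genes, was at 152 and 143 TPM in shPHF8 libraries, against 185 and 218 TPM in shControl libraries, a log2 fold change of -0.44 ± 0.11 (SE; limma with Benjamini-Hochberg adjusted p = 0.142). Its near-identical neighbour HSPA1B was at 164 and 145 TPM in shPHF8 libraries, against 169 and 202 TPM in shControl libraries (log2 fold change -0.25 ± 0.13, SE). The groups did not overlap for either gene, though the gap for HSPA1B was narrow. Reads of this pair can be exchanged, so their sum is the firmer value: 317 and 288 TPM in shPHF8 libraries, against 354 and 420 TPM in shControl libraries, a ratio of means of 0.782.

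The constitutive cytosolic HSPA8 was at 1958 and 1621 TPM in shPHF8 libraries, against 1703 and 1859 TPM in shControl libraries, with overlapping groups and a log2 fold change of 0.00 ± 0.11 (SE). HSPA9, the HSP70 of mitochondria, was at 716 and 795 TPM in shPHF8 libraries, against 794 and 635 TPM in shControl libraries, again overlapping. HSPA14, which works at the ribosome, was at 140 and 141 TPM in shPHF8 libraries, against 144 and 153 TPM in shControl libraries. HSPA13, of the endoplasmic reticulum, and the low HSPA1L overlapped between groups. Of the 8 HSP70 genes, 0 had both shPHF8 libraries above both shControl libraries and 4, namely HSPA6, HSPA1A, HSPA1B and HSPA14, had them below, where 26.0% and 29.3% of all genes did.

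The J-protein that pairs with inducible HSP70, DNAJB1, was also lower. It was at 78.0 and 67.3 TPM in shPHF8 libraries, against 94.2 and 103 TPM in shControl libraries, a log2 fold change of -0.44 ± 0.12 (SE; limma with Benjamini-Hochberg adjusted p = 0.155). Of other heat-inducible chaperones, HSPH1 and HSPB1 were higher. HSPH1, an HSP110 that resets HSP70, was at 104 and 105 TPM in shPHF8 libraries, against 76.5 and 90.6 TPM in shControl libraries, a log2 fold change of 0.32 ± 0.11 (SE; limma with Benjamini-Hochberg adjusted p = 0.218). HSPB1, the small heat shock protein HSP27, was at 481 and 449 TPM in shPHF8 libraries, against 327 and 374 TPM in shControl libraries, a log2 fold change of 0.41 ± 0.09 (SE; limma with Benjamini-Hochberg adjusted p = 0.127). BAG3, which links HSP70 to small heat shock proteins and autophagy, was at 35.4 and 35.2 TPM in shPHF8 libraries, against 28.4 and 35.2 TPM in shControl libraries. HSP90AA1, the inducible HSP90, was at 1181 and 1191 TPM in shPHF8 libraries, against 1011 and 1523 TPM in shControl libraries, so its shControl libraries enclosed both shPHF8 values. HSF1 itself was at 36.4 and 27.7 TPM in shPHF8 libraries, against 29.2 and 27.9 TPM in shControl libraries.

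Only HSPA6 among these heat shock genes had an unadjusted limma p under 0.05 under all 13 alternatives. HSPB1 did under 12 of 13, HSPA1A and DNAJB1 under 11 of 13, and HSPH1 under 5 of 13. The transcripts of HSPH1 were uneven between libraries. HSPH1-002 was at 0 and 77.4 TPM in shPHF8 libraries, against 60.9 and 65.5 TPM in shControl libraries. HSPH1-006 was at 86.9 and 5.80 TPM, against 2.87 and 2.45 TPM. With the most abundant transcript in place of the sum, the log2 fold change of HSPH1 was -2.86. With TPM times transcript length it was 0.26, and the groups did not overlap.

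To set these values beside their promoters, the 250 bases before each RefSeq gene start (GRCh38.p14) were searched for the paired heat shock element units GAANNTTC or TTCNNGAA, and for triple forms, in which 1 more unit of the other orientation follows a pair after any 2 bases. Each paired form is its own reverse complement and the triple forms are each other's, so both strands are covered, and a triple holds 2 overlapping pairs. Promoters were found for 62 of the 68 genes, as 82 windows. A paired form was in 19 windows, or 23.2%, against 11.6% of all 35116 promoter windows, and a triple form in 6, or 7.32%, against 0.441%. In the windows of all genes tested, the shares were 8.75% for a paired form and 0.341% for a triple form. The 6 genes with a triple were HSPA6, HSPD1, HSP90AB1, DNAJB6, HSPA8 and HSP90AA1. Of these 6, 0 were higher and 2 lower without overlap, and 4 overlapped between groups. Of the 19 genes with any match, both shPHF8 libraries were higher in 3, lower in 6, and overlapped shControl in 10, with a median log2 fold change of -0.05, where 26.0% of all genes were higher and 29.3% lower without overlap. A match describes the letters only. HSPA1A and HSPA1L share 1 match in the stretch between them.

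The stretches below hold the matches, in capitals, of 5 of the 6 genes with a match that were lower without overlap (HSPA6, HSPA1A, HSPA1B, DNAJB1 and HSP90AB1; TCP1 is not shown) and of 1 of the 3 that were higher (HSPB1). They are printed 5′ to 3′ on the gene's strand, shortened around the matches and without annotated exon bases. HSPA6 is at chr1:161524320-161524518 on the plus strand, HSPA1A at chr6:31815397-31815463 on the plus strand, and HSPA1B at chr6:31827593-31827680 on the plus strand. DNAJB1 is at chr19:14518421-14518514 on the minus strand, HSPB1 at chr7:76302451-76302538 on the plus strand, and HSP90AB1 at chr6:44247738-44247865 on the plus strand.
HSPA6: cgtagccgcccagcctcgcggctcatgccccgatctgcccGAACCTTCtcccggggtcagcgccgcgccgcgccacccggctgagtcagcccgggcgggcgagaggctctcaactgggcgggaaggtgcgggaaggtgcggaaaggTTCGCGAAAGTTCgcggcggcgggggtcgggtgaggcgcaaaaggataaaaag
HSPA1A: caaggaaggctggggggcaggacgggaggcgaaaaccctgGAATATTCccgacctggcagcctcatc
HSPA1B: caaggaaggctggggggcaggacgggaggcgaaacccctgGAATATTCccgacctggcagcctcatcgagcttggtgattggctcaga
DNAJB1: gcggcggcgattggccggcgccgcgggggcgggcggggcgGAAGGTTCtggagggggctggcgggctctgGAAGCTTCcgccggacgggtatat
HSPB1: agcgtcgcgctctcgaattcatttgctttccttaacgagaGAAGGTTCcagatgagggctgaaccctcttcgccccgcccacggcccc
HSP90AB1: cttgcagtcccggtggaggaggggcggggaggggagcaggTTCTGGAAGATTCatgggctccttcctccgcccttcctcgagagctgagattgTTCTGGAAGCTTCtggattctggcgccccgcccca
The HSPA1A and HSPA1B stretches were identical in 66 of the 67 bases they share. HSPA6 and HSP90AB1 both hold a triple, yet their log2 fold changes were -1.60 and -0.05. DNAJB1 and HSPB1 both hold the pair GAAGGTTC, and their log2 fold changes were -0.44 and 0.41.

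**Figure D3:**
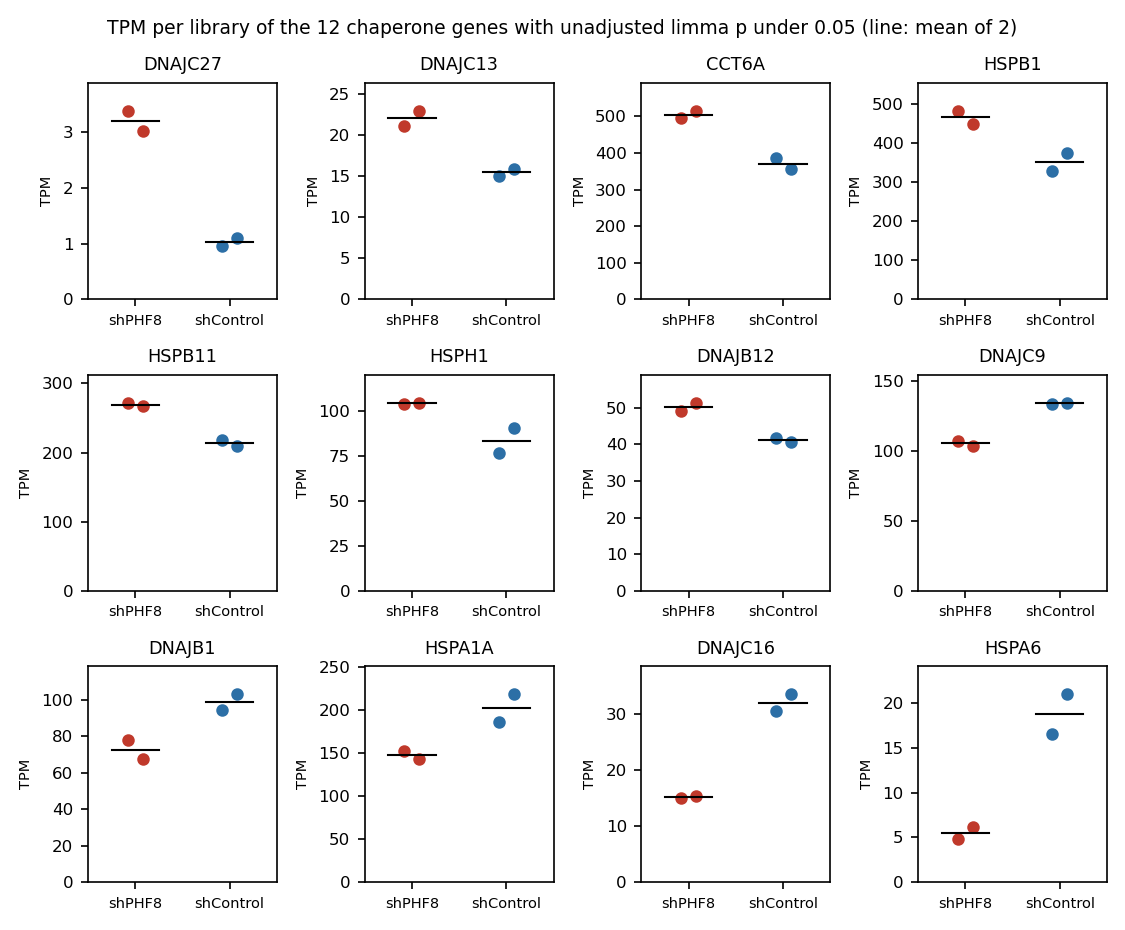
TPM in each library of the 12 chaperone genes with an unadjusted limma p under 0.05, 1 panel per gene with its own axis from 0; red points are shPHF8, blue points shControl and lines the mean of 2. The groups do not overlap in any panel, and DNAJC16 and HSPA6 show the widest gaps among the 5 lower genes.

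HSP90AB1 differed little in total, while the TPM assigned to 2 of its transcripts differed more. HSP90AB1, the constitutive cytosolic HSP90, was at 3495 and 3560 TPM in shPHF8 libraries, against 3617 and 3684 TPM in shControl libraries, for a log2 fold change of -0.05 ± 0.04 (SE), whose 95% confidence bounds were -0.15 and 0.05. Its main transcript HSP90AB1-003 was at 2235 and 2248 TPM in shPHF8 libraries, against 3207 and 3088 TPM in shControl libraries. HSP90AB1-004, of nearly the same length, was at 1112 and 1128 TPM in shPHF8 libraries, against 245 and 442 TPM in shControl libraries. These opposite differences nearly cancelled in the sum. The 2 transcripts were chosen after their values were seen, were not tested, and may divide the same reads. Of all transcripts, 21.0% were higher and 22.2% lower without overlap. HSP90AB1 stood at 2.96 and 2.99 times HSP90AA1 in shPHF8 libraries, against 3.58 and 2.42 times in shControl libraries.

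Among the other nucleotide exchange factors the groups mostly lay close. HSPA4, an HSP110, was at 282 and 249 TPM in shPHF8 libraries, against 226 and 239 TPM in shControl libraries, but 104 of the 282 TPM belonged to HSPA4-202, which was listed at 0 in the other 3 libraries. BAG6, which guards membrane proteins before insertion, was at 388 and 274 TPM in shPHF8 libraries, against 287 and 269 TPM in shControl libraries. Its log2 fold change of 0.23 came from shPHF8 replicate 1 and was -0.02 without it. BAG1, BAG2, BAG4, BAG5 and HSPA4L had log2 fold changes between -0.15 and 0.06, and none of them had an unadjusted limma p under 0.05.

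J-proteins of class A, the general partners of HSP70, differed little. DNAJA1, the most abundant J-protein, was at 261 and 266 TPM in shPHF8 libraries, against 244 and 297 TPM in shControl libraries. DNAJA2 was at 106 and 109 TPM in shPHF8 libraries, against 98.3 and 91.1 TPM in shControl libraries, and the mitochondrial DNAJA3 at 67.5 and 66.6 TPM, against 68.5 and 70.0 TPM. In class B, besides DNAJB1, DNAJB12 of the endoplasmic reticulum membrane was at 49.1 and 51.4 TPM in shPHF8 libraries, against 41.6 and 40.5 TPM in shControl libraries (log2 fold change 0.28 ± 0.10, SE). This direction held for the sum of its transcripts and not for the most abundant one, at -0.13. DNAJB4 was at 36.3 and 58.4 TPM in shPHF8 libraries, against 35.3 and 26.0 TPM in shControl libraries, without overlap but with wide spread. DNAJB6, known for holding back aggregation, was at 38.9 and 45.5 TPM in shPHF8 libraries, against 63.5 and 43.2 TPM in shControl libraries. DNAJB14 overlapped between groups, and DNAJB5, at 1.53 and 0 TPM in shPHF8 libraries against 2.59 and 1.61 TPM in shControl libraries, was too low to judge.

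Class C, whose J-proteins tie HSP70 to special tasks, held the largest differences in both directions after HSPA6. DNAJC16 (ENSG00000116138), a transmembrane J-protein, was at 15.0 and 15.4 TPM in shPHF8 libraries, against 30.6 and 33.6 TPM in shControl libraries. It stood at 0.473 times the shControl mean, with a log2 fold change of -1.03 ± 0.13 (SE; limma with Benjamini-Hochberg adjusted p = 0.0703), the smallest adjusted p of the chaperones. Its most abundant transcript DNAJC16-201 was at 1.54 and 11.5 TPM in shPHF8 libraries, against 21.8 and 21.9 TPM in shControl libraries. With that transcript in place of the sum, the log2 fold change was -2.02, with an unadjusted limma p of 0.0989. DNAJC16-002 was at 4.04 and 0.832 TPM in shPHF8 libraries, against 7.25 and 5.66 TPM in shControl libraries. DNAJC16-001, at 9.42 and 3.08 TPM against 1.54 and 6.08 TPM, overlapped, so the transcripts were uneven between libraries. DNAJC9, a chaperone of histones H3 and H4, was at 108 and 104 TPM in shPHF8 libraries, against 134 and 135 TPM in shControl libraries, from a single listed transcript (log2 fold change -0.34 ± 0.07, SE; limma with Benjamini-Hochberg adjusted p = 0.121).

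DNAJC13, an endosomal J-protein that acts in receptor recycling, was at 21.1 and 22.9 TPM in shPHF8 libraries, against 15.0 and 15.9 TPM in shControl libraries (log2 fold change 0.48 ± 0.13, SE; limma with Benjamini-Hochberg adjusted p = 0.164). DNAJC27, a J-protein with a Rab-like GTPase domain, was at 3.37 and 3.01 TPM in shPHF8 libraries, against 0.965 and 1.10 TPM in shControl libraries, a log2 fold change of 1.04 ± 0.26 (SE; limma with Benjamini-Hochberg adjusted p = 0.146). At this level the log2(TPM + 1) scale understates its 3.09-fold ratio of means, and its unadjusted limma p was 0.0764 without shPHF8 replicate 1 and 0.0573 without shPHF8 replicate 2. DNAJC7, which carries clients between HSP70 and HSP90, was at 224 and 222 TPM in shPHF8 libraries, against 250 and 83.8 TPM in shControl libraries. The low value was that of shControl replicate 2, where the transcript DNAJC7-005 was at 3.14 TPM against 161 TPM in shControl replicate 1 and 156 and 158 TPM in shPHF8 libraries. Its log2 fold change was 0.62 with that library and -0.16 without it.

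None of the remaining class C genes had an unadjusted limma p under 0.05. DNAJC2, which works at the ribosome, DNAJC8, of the spliceosome, DNAJC21, of ribosome maturation, DNAJC6, which uncoats clathrin vesicles, and DNAJC24, of diphthamide synthesis, overlapped between groups. So did DNAJC5, DNAJC10, DNAJC11, DNAJC12, DNAJC18, DNAJC19, DNAJC25, DNAJC28 and the readthrough DNAJC25-GNG10. DNAJC1, of the endoplasmic reticulum, was at 100 and 106 TPM in shPHF8 libraries, against 92.0 and 76.6 TPM in shControl libraries, and DNAJC30, of mitochondria, at 15.8 and 16.7 TPM, against 12.2 and 12.8 TPM. DNAJC4, DNAJC14 and DNAJC17 were lower without overlap and DNAJC15 was higher without overlap. In class C as a whole 5 of 25 genes were higher and 5 lower without overlap, against 26.0% and 29.3% of all genes.

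The 3 genes named as small heat shock proteins were higher in mean, 2 of them without overlap. Of all genes, 26.0% were higher without overlap, and 3 genes are too few to read as a group. Besides HSPB1, HSPB11 (ENSG00000081870), also known as IFT25 of the intraflagellar transport machinery, was at 272 and 267 TPM in shPHF8 libraries, against 219 and 209 TPM in shControl libraries, a log2 fold change of 0.33 ± 0.06 (SE; limma with Benjamini-Hochberg adjusted p = 0.108). It had an unadjusted limma p under 0.05 under all 13 alternatives. HSPB3, a muscle member at a low level, was at 11.6 and 16.5 TPM in shPHF8 libraries, against 9.09 and 13.2 TPM in shControl libraries, with overlap. Together the 3 genes summed to 764 and 732 TPM in shPHF8 libraries, against 555 and 597 TPM in shControl libraries.

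In the mitochondrial chaperonin both partners overlapped between groups. HSPD1 was at 916 and 953 TPM in shPHF8 libraries, against 917 and 854 TPM in shControl libraries, and its co-chaperonin HSPE1 at 299 and 349 TPM, against 293 and 338 TPM. Their ratio was 3.06 and 2.73 in shPHF8 libraries, against 3.13 and 2.52 in shControl libraries. GENCODE 29 lists 17 pseudogenes named after HSPD1, 26 after HSPE1 and 17 after HSPA8, so reads of these genes may be shared with near copies. Among other members it lists 9 after DNAJC19, 6 after DNAJA1 and 2 each after HSPB1, TCP1, CCT4, CCT5 and CCT7. Only names made of the full gene symbol, P and a number were counted. The count of 0 for CCT6A and HSP90AB1 therefore does not exclude near copies. The readthrough HSPE1-MOB4 was at 12.4 and 18.7 TPM in shPHF8 libraries, against 6.13 and 18.1 TPM in shControl libraries. Over the 8 members placed in mitochondria, namely HSPA9, HSPD1, HSPE1, DNAJA3, DNAJC11, DNAJC15, DNAJC19 and DNAJC30, none had an unadjusted limma p under 0.05, and the median log2 fold change was 0.06. The rule also kept members of the endoplasmic reticulum, and 6 were placed there by a fixed list, which may be incomplete. Of these, HSPA13, DNAJC1, DNAJC10, DNAJB12, DNAJB14 and DNAJC14, only DNAJB12 had an unadjusted limma p under 0.05. The transmembrane DNAJC16, lower at a log2 fold change of -1.03 and under that threshold, was not on the list, so the list does not speak for all such members. Over all genes, 22.0% had an unadjusted limma p under 0.05.

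The CCT ring is built from 8 different subunits in equal number. In the main analysis 1 of the 8, CCT6A, had an unadjusted limma p under 0.05, where 22.0% of all genes did. CCT6A (ENSG00000146731) was at 495 and 514 TPM in shPHF8 libraries, against 388 and 355 TPM in shControl libraries, a log2 fold change of 0.44 ± 0.07 (SE; limma with Benjamini-Hochberg adjusted p = 0.0906). On summed TPM, its 7 partner subunits had log2 fold changes from -0.12 to 0.00. TCP1 was at 565 and 575 TPM in shPHF8 libraries, against 618 and 624 TPM in shControl libraries, the only one of these 7 whose groups did not overlap. With TPM times transcript length TCP1 had a log2 fold change of -0.15 and an unadjusted limma p of 0.0294. CCT8 was at 777 and 770 TPM in shPHF8 libraries, against 772 and 777 TPM in shControl libraries, and CCT2 at 340 and 347 TPM, against 370 and 320 TPM. CCT3, CCT4, CCT5 and CCT7 overlapped likewise.

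Relative to the mean of the other 7 subunits, CCT6A stood at 0.908 and 0.925 in shPHF8 libraries, against 0.675 and 0.626 in shControl libraries. Both its transcripts were higher. CCT6A-001 was at 360 and 370 TPM in shPHF8 libraries, against 328 and 285 TPM in shControl libraries, and CCT6A-003 at 135 and 144 TPM, against 59.9 and 70.7 TPM. The unadjusted limma p of CCT6A was under 0.05 under 12 of 13 alternatives, the exception being the most abundant transcript alone, with an unadjusted limma p of 0.0560. TCP1 kept its sign under the 13 alternatives, while 6 other subunits did not keep theirs: CCT2, CCT4 and CCT8 changed sign under another scaling, and CCT3, CCT5 and CCT7 with the most abundant transcript in place of the sum.

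**Figure D4:**
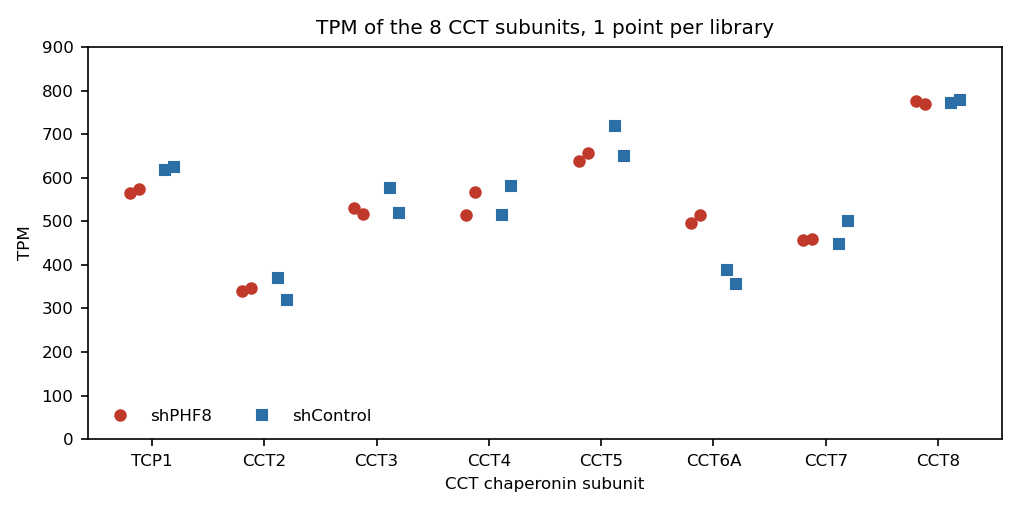
TPM of the 8 subunits of the CCT chaperonin, 1 point per library on an axis from 0, with shPHF8 as red circles and shControl as blue squares. CCT6A at 495 and 514 TPM in shPHF8 libraries lies clear of 388 and 355 TPM in shControl libraries, while the points of most other subunits overlap.

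Single transcripts were compared by whether the groups overlapped. Of 198 chaperone transcripts with a mean of at least 1 TPM, 43 were higher and 44 lower without overlap, or 21.7% and 22.2%, where 21.0% and 22.2% of all 30266 such transcripts were, so the chaperone shares were at the background. The examples that follow were chosen after their values were seen. CCT3-021, a short transcript of CCT3, was at 2.61 and 0 TPM in shPHF8 libraries, against 111 and 97.9 TPM in shControl libraries, while the full CCT3-001 was at 459 and 469 TPM, against 385 and 366 TPM. HSPA8-023, a short transcript of HSPA8, was at 1.54 and 0.574 TPM in shPHF8 libraries, against 60.8 and 77.6 TPM in shControl libraries. The main HSPA8-010 was at 994 and 963 TPM in shPHF8 libraries, against 839 and 913 TPM in shControl libraries. These are values of the authors' transcript estimates, in which transcripts of 1 gene that share most of their sequence divide the same reads.

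**Figure D5:**
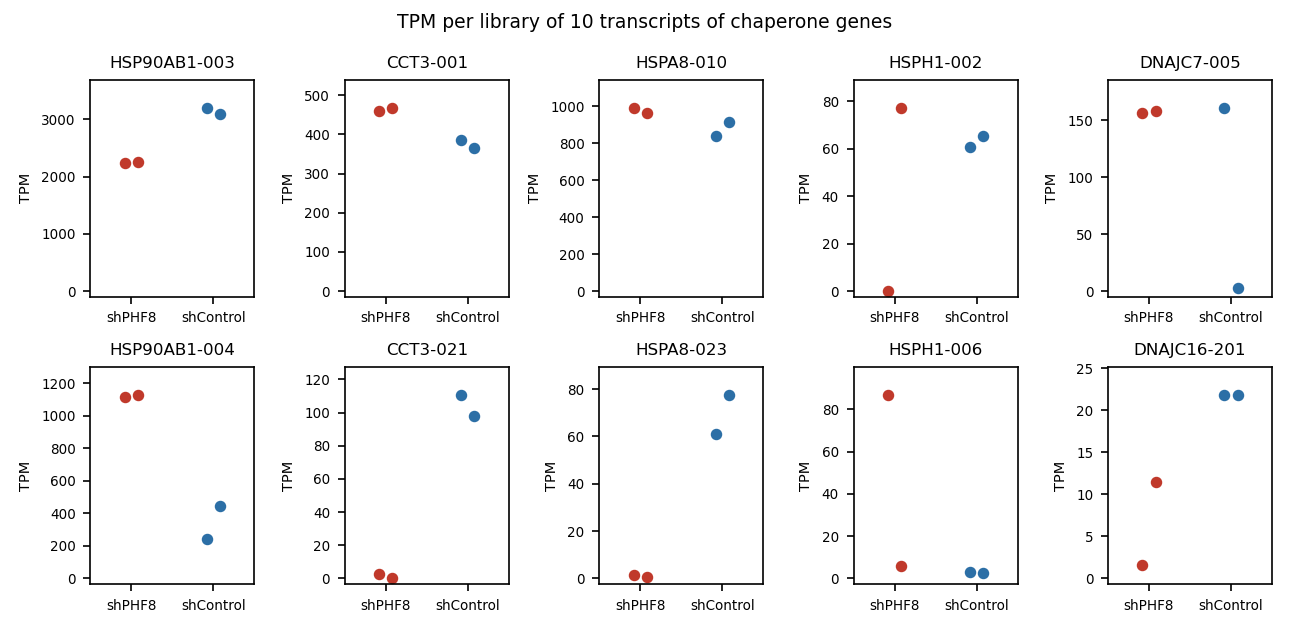
TPM per library of 10 transcripts of chaperone genes, each panel on its own axis from 0, red for shPHF8 and blue for shControl. HSP90AB1-004 is at 1112 and 1128 TPM in shPHF8 libraries and 245 and 442 TPM in shControl libraries, CCT3-021 and HSPA8-023 are near 0 in shPHF8 libraries, and HSPH1-002 and DNAJC7-005 are near 0 in 1 library each.

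The cofactors of these chaperones showed single differences and no common direction. Over 5 lists with 52 tested genes, 5 were higher and 5 lower at an unadjusted limma p under 0.05, near the 9.9% and 12.1% of all genes, and 0 passed limma with Benjamini-Hochberg adjustment. Among 19 HSP90 cochaperones, FKBP5, which acts on steroid receptors, was at 213 and 241 TPM in shPHF8 libraries, against 145 and 121 TPM in shControl libraries. FKBP8 was at 215 and 222 TPM in shPHF8 libraries, against 187 and 191 TPM in shControl libraries, and AHSA1, which speeds the ATPase of HSP90, at 133 and 135 TPM, against 152 and 164 TPM. Among 8 HSP70 cofactors, the exchange factor HSPBP1 was at 58.4 and 53.1 TPM in shPHF8 libraries, against 82.5 and 71.1 TPM in shControl libraries, and SGTA at 111 and 106 TPM, against 131 and 148 TPM. HSCB, a mitochondrial J-protein of iron-sulphur cluster assembly, was at 9.21 and 9.09 TPM in shPHF8 libraries, against 5.36 and 2.18 TPM in shControl libraries.

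Of the prefoldin subunits, which deliver chains to CCT, PFDN2 and PFDN6 were lower at an unadjusted limma p under 0.05, with Benjamini-Hochberg adjusted p of 0.143 and 0.155. PFDN2 was at 77.6 and 157 TPM in shPHF8 libraries, against 287 and 314 TPM in shControl libraries, and PFDN6 at 271 and 256 TPM, against 310 and 346 TPM. TXNDC9, a CCT cofactor, was at 84.5 and 86.2 TPM in shPHF8 libraries, against 63.6 and 72.8 TPM in shControl libraries. Of 9 mitochondrial chaperones and proteases 1, the disaggregase CLPB, had an unadjusted limma p under 0.05, where 22.0% of all genes did. CLPB was at 22.4 and 18.4 TPM in shPHF8 libraries, against 10.5 and 13.1 TPM in shControl libraries. TRAP1, the HSP90 of mitochondria, was at 348 and 339 TPM in shPHF8 libraries, against 309 and 310 TPM in shControl libraries. Of the heat shock factors HSF1, HSF2 and HSF4 and the factor-binding protein HSBP1, none reached an unadjusted limma p of 0.05. Of the 4 chaperones of the endoplasmic reticulum left out by the rule, HSPA5 alone did, at 695 and 773 TPM in shPHF8 libraries, against 496 and 494 TPM in shControl libraries.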

How the data were processed

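RNA from 4 K562 libraries was analysed, grouped by title into 2 shPHF8 and 2 shControl. The authors deposited 1 table with a TPM value per transcript and library, per the file headers; each column sums to 1000000. A second set of columns was deposited as signal without a stated unit; it is a multiple of TPM and was used only to check that. Per the submitters' processing notes, HISAT2 2.0.4, StringTie 1.2.3 and hg19 were used; for their settings, the annotation and strandedness, the sources used here say nothing. TPM hold no read number, so depth is unknown and no counting error can be given. A TPM is also a share of the listed transcripts.

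TPM were summed per gene name. The 10972 genes averaging 1 TPM or more were fitted as log2(TPM + 1) with limma 3.58.1 in R 4.3.3 (mean-variance trend, two-sided, Benjamini-Hochberg at 0.05), with 2 residual degrees of freedom and 2.16 from the prior. The step was tested on simulated data. An exact permutation test of 2 against 2 libraries cannot go below 0.333 and was not used. Alternatives were a pseudocount of 0.1, a minimum of 5 TPM or none, median-of-ratios scaling, quantile normalization, no trend, the replicate block, the most abundant transcript, leaving out each library and, chosen after seeing the data, TPM times transcript length (GENCODE 29). The last used only the 32329 of 32551 transcripts with a length there, which hold 206 of the 208 chaperone transcripts. Python 3.11.15, pandas 2.3.3 and matplotlib 3.10.9 made tables and figures. Promoters are from RefSeq (GRCh38.p14), matched by symbol.

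The members and gene lists were chosen with earlier results of these data known. Named were core heat shock and chaperonin genes, per role group the most abundant member and up to 3 per direction with the smallest unadjusted limma p under 0.05, and up to 3 per cofactor list; other members, and the transcripts, were chosen after their values were seen. One marker gene is not reported here.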

Additional observations from a re-analysis of the deposited data

How the results depend on the processing

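Under the 13 alternatives run, 0 chaperone genes were called over all genes by limma with Benjamini-Hochberg adjustment in either direction. Over all genes the calls were 0 in the main analysis, 17 higher and 20 lower with quantile normalization, 10 and 11 with the most abundant transcript, and 55 and 69 with TPM times transcript length, where PHF8 passed at -2.03. The count of chaperones higher at an unadjusted limma p under 0.05, 7, was 4 with the most abundant transcript, 3 of them among the 7, and 3 to 7 without 1 library, 2 to 5 of them among the 7. The count lower, 5, was 4 to 7 without 1 library, 2 to 5 of them among the 5. The median log2 fold change of the chaperones, -0.031, was 0.0070 with quantile normalization, -0.058 with the most abundant transcript and -0.038 to 0.0077 without 1 library, and the log2 ratio of summed TPM, 0.0057, was -0.077 with the most abundant transcript and -0.010 to 0.022 without 1 library; the cause was not tested. With the replicate block 5 were higher and 5 lower, all among the 12, and no call over all genes changed. Deviations of same-numbered libraries correlated at -0.03, so the numbers are not read as pairs.

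Signs turned for genes near 0 or with uneven transcripts. With the most abundant transcript the log2 fold change was -1.40 for BAG6, 0.31 for CCT3, 0.31 for CCT5, 0.018 for CCT7, -0.13 for DNAJB12 and -2.86 for HSPH1. With TPM times transcript length it was 0.0030 for CCT2, 0.12 for CCT3 and 0.0026 for CCT5. With median-of-ratios scaling it was 0.015 for CCT2 and 0.014 for CCT8, and with quantile normalization 0.020 for CCT4, 0.0070 for CCT8, 0.069 for HSP90AA1 and -0.015 for HSPA8. Without 1 library the ranges were -0.019 to 0.48 for BAG6, -0.11 to 0.10 for CCT2, -0.14 to 0.014 for CCT3, -0.11 to 0.067 for CCT4, -0.13 to 0.029 for CCT7, -0.0088 to 0.0039 for CCT8, -0.17 to 0.11 for DNAJA1, -0.16 to 1.41 for DNAJC7, -0.36 to 0.23 for HSP90AA1, -0.13 to 0.14 for HSPA8, -0.075 to 0.25 for HSPA9 and -0.075 to 0.15 for HSPE1. What limits these values is that 2 libraries a group leave few degrees of freedom, that depth is unknown, and that isoforms and near copies divide reads.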

Other observations

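Some chaperone transcripts differed widely between libraries of 1 group; these examples were chosen after their values were seen. BAG6-028, a short transcript of BAG6, was at 134 and 0.963 TPM in shPHF8 libraries, against 0.00790 and 0.00860 TPM in shControl libraries. DNAJC6-002, a transcript of the clathrin-uncoating J-protein auxilin, was at 0.0309 and 0 TPM in shPHF8 libraries, against 0 and 55.0 TPM in shControl libraries, while DNAJC6-201 was at 50.5 and 44.6 TPM, against 50.4 and 0.290 TPM. CCT2-005 was at 171 and 192 TPM in shPHF8 libraries, against 0.400 and 188 TPM in shControl libraries. DNAJC14-002 was at 22.8 and 0 TPM in shPHF8 libraries, against 0.000100 and 30.6 TPM in shControl libraries. The gene sums lay closer, such as DNAJC6 at 64.2 and 75.5 TPM in shPHF8 libraries, against 80.0 and 69.2 TPM in shControl libraries.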
